A study of Mus musculus with 10 samples.

Results

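Histone H3 monomethylated at lysine 9 (H3K9me1) was profiled by chromatin immunoprecipitation followed by sequencing (ChIP-seq) in skeletal muscle of fed mice and of mice starved for 24 h. The samples were chosen by their labels, H3K9me1 fed and H3K9me1 24h starved, which are 2 of the 10 libraries of the series. They hold 52201 of the 365066 peaks in its 8 peak lists, 14178 fed and 38023 starved. Both libraries came from C57BL/6J mice whose labels give an age of 10 weeks, although the text of the study gives another age, and the study used males. The methods name 1 antibody for H3K9me1 and input chromatin as the control in peak calling. The 2 H3K9me1 libraries carried different library codes, whereas both inputs carried the code of the fed library. Condition and library code therefore cannot be told apart. Each condition had 1 library, so replicate error is unknown for every difference between the conditions, and the values describe these libraries alone. The number of reads per library is unknown. Peak lists hold no expression values, so the identity of the tissue was not checked against muscle markers.

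Methyl groups on H3K9 are written by G9a, GLP, SETDB1 and the SUV39H enzymes, and the di- and trimethylated forms are known marks of silent chromatin and of the satellite repeats beside centromeres. H3K9me1 is the first product of these enzymes and the substrate for further methylation, and it is also found in the neighbourhood of active promoters. LSD1 (KDM1A), a flavin-dependent demethylase, removes mono- and dimethyl groups, from H3K4 and, in partnership with some nuclear receptors, from H3K9. The study asked whether H3K9 methylation at sites of LSD1 changes when mice are starved, with the glucocorticoid receptor (GR) profiled in the same conditions.

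The strongest sites called in both conditions were made of simple sequence. The sites shown here are on build GRCm38 (mm10), read on the plus strand, and span the joined fed and starved peak. They were taken from the 10 shared sites on autosomes and X with the highest lower fold enrichment of the 2 conditions, where fold enrichment is the authors' ratio of ChIP to input signal in a peak. The first set carries an uninterrupted 5-base repeat, GGAAT or ATTCC on the other strand, and capitals mark its copies.
chr9:19575436-19575517, intergenic, 8.09 kb from the start of the olfactory receptor gene Olfr854: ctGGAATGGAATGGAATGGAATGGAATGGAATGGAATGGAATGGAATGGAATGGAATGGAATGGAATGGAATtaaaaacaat
chr1:12644767-12644852, intergenic, 22.8 kb from the start of Gm17644: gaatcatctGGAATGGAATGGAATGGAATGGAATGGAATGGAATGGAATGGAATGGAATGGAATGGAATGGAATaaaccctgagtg
chr17:56200008-56200093, intronic, 16.1 kb from the start of Mydgf, which encodes a secreted growth factor: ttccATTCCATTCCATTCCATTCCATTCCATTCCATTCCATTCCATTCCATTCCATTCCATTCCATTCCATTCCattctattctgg
The second set carries a run of 1 base, C or G, which is marked by capitals.
chr3:68605391-68605442, in an intron, 33.0 kb from the start of Schip1, which encodes a cytoskeletal adaptor: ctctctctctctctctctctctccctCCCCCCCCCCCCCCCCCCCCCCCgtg
chr7:63033073-63033132, intergenic, 179 kb from the start of Chrna7, which encodes a nicotinic acetylcholine receptor subunit: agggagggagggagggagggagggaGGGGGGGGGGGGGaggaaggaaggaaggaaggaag
The last is 1 unit of the satellite array at the centromeric end of chromosome 9, shown because 42 fed peaks lay in that array. Capitals mark the short T-rich runs that recur along it.
chr9:3000652-3000885, intergenic: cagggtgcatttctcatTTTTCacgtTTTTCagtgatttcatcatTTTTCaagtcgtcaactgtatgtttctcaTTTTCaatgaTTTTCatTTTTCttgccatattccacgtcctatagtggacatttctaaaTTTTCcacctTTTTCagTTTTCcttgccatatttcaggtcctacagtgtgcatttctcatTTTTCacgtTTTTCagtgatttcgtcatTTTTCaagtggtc

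At the 3 GGAAT sites shown, the fed peak was far stronger than the starved one. The site near Olfr854 had a fold enrichment of 22.0 fed and 8.98 starved. The site near Gm17644 had 23.4 fed and 8.45 starved, and the site near Mydgf had 25.5 fed and 8.21 starved. All 10 GGAAT sites called in both lists had the lower fold in the starved list, with a median of 19.1 (range 10.1 to 25.5) fed and 7.81 (range 5.57 to 8.98) starved. These ranges are over sites within 1 library each and measure no spread between the conditions. Over all 303 overlapping pairs, 101 had the lower fold starved. At the C and G runs the 2 conditions were closer. The run near Schip1 had a fold of 9.79 fed and 8.03 starved. The run near Chrna7, which was too short for the class of C or G runs of at least 15 bp, had 7.63 fed and 8.24 starved. All 6 pairs in that class had the lower fold in the starved list, with medians of 9.19 and 7.45.

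The 5-base repeat is rare in the genome, and a large share of its copies held a fed H3K9me1 peak. The build has 41 stretches of at least 4 perfect copies (20 bp), counted on both strands with stretches up to 50 bp apart joined. Of these, 25 (61.0%, 95% CI 44.5 to 75.8) held a fed peak and 10 (24.4%, 95% CI 12.4 to 40.3) a starved one. Of the 16 stretches of 50 bp or longer, 15 held a fed and 8 a starved H3K9me1 peak. The intervals here and below are exact binomial (Clopper-Pearson) intervals and cover counting error only. The same stretches were called in other lists as well, 33 of 41 in H3K9me2 fed and 4 in H3K9me2 starved, 26 in LSD1 fed and 15 in LSD1 starved, and 9 in GR fed and 1 in GR starved. For each of the 4 targets the fed list held more of them than the starved list. The series has 1 input per condition, so the 4 comparisons are not independent of each other. They were thus called for the other targets as well as for H3K9me1. By contrast, the build has 10538 C or G runs of at least 15 bp, and 7 (0.0664%) held a fed and 25 (0.237%) a starved H3K9me1 peak.

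**Figure D1:**
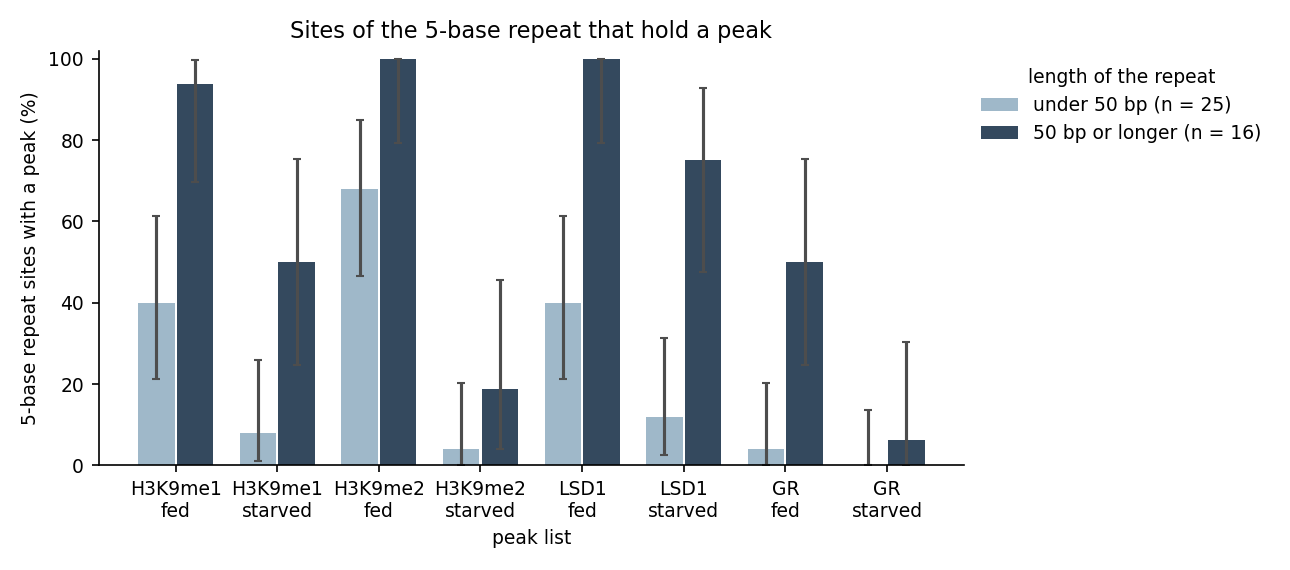
Share of genomic stretches of the GGAAT repeat (y axis, percent) that held a peak in each of the 8 lists (x axis), for 25 stretches under 50 bp and 16 of 50 bp or longer, with exact 95% binomial intervals as error bars. H3K9me1 fed held 15 of the 16 long stretches and H3K9me1 starved 8 of 16, and the fed bar is above the starved one for every target.

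The lists differed in number of peaks by a ratio of 2.68, and the starved list covered 4108 kb against 1217 kb. The peaks themselves had similar fold enrichments, with a median of 3.91 (10th to 90th percentile 3.6 to 4.61) fed and 3.97 (3.70 to 4.76) starved. Only the very highest folds were more frequent in the smaller list, since 34 fed and 15 starved peaks had a fold of at least 8. A fold of at least 5 was reached by 565 fed and 2139 starved peaks. A q-value of 0.01 or less was reached by 5810 fed peaks (41.0%) and 17071 starved peaks (44.9%). Many peaks shared 1 value of fold. The fold 3.69 occurred in 980 fed peaks (6.91%), with a median q-value of 0.0625. The fold 3.97 occurred in 4888 starved peaks (12.9%), with a median q-value of 0.0266. The starved peaks reached greater lengths, with a longest peak of 22539 bp inside the satellite array of chromosome 9 against 1492 bp fed, in the same array.

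Most H3K9me1 peaks of both conditions lay between genes or in introns, in shares not far from those of the genome. Of the fed peaks, 51.3% (95% CI 50.5 to 52.1) had an intergenic midpoint, as did 54.5% of the starved peaks and 60% of the genome. Introns held 40.8% of the fed and 39.1% of the starved peaks, against 36.3% of the genome. Exons held 3.84% and 3.67%, against 2.56%. Promoters, which here begin 1000 bp before a transcription start site (TSS) and end 100 bp past it, held 465 fed and 786 starved peaks, 2.76 and 1.74 times their share of the genome. Proximity to a TSS showed the same order. A midpoint within 1 kb of a TSS was found for 5.12% (95% CI 4.77 to 5.50) of the fed and 3.73% (95% CI 3.54 to 3.93) of the starved peaks, against 2.04% of positions in the genome. The median distance was 39.2 kb fed and 44.0 kb starved. H3K9me1 was far less promoter-bound than LSD1 or GR in fed muscle, which had 33.4% and 22.3% of their peaks in promoters, and was near H3K9me2 fed at 3.52%.

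The promoter share was highest among the weakest peaks. Fed peaks with a fold under 3.5 had 93 of 943 midpoints in promoters (9.86%, 95% CI 8.03 to 11.9), against 14 of 565 (2.48%, 95% CI 1.36 to 4.12) at a fold of 5 or more. The starved list ran the same way, with 94 of 1832 (5.13%, 95% CI 4.17 to 6.24) and 42 of 2139 (1.96%, 95% CI 1.42 to 2.64). Length went along with it in the fed list, since 2.13% of the peaks of the shortest length and 5.34% of the longer ones were in promoters. In the starved list these shares were 1.69% and 2.39%. Promoter peaks were rich in CpG dinucleotides, with 6.24 per 100 bp fed and 4.66 starved, against 0.90 and 0.860 in the intergenic peaks and 0.826 in the genome. Their GC content was 59.5% fed and 54.9% starved, against 41.7% in the genome. Whether GC content or the input signal bore on the fold of these peaks was not tested.

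Peaks were spread fairly evenly over the autosomes and were scarce on X and Y. The density over all autosomes was 5.82 peaks per Mb of known sequence fed and 15.6 starved. Chromosome 7 had the lowest density in both lists, 4.93 and 13.5 per Mb. The highest was 6.54 on chromosome 2 fed and 17.2 on chromosome 3 starved. Across the 19 autosomes the rank correlation of density with genes per Mb was 0.007 fed and -0.088 starved, and with GC content -0.163 and -0.353, where the points of a list share 1 library. Chromosome X held 115 fed and 329 starved peaks, a density of 0.121 and 0.129 of that on autosomes. All 8 lists of the series had such a low value on X, from 0.0737 to 0.218. Chromosome Y held 14 fed and 116 starved peaks, 0.0273 and 0.0845 of the autosomal density. The males of the study carry a single X and a single Y, and the inputs entered the lists only through peak calling.

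The distal ends of X and Y, which pair with each other in male meiosis, stood out from the rest of both chromosomes. On X the fed list held 11 of its 115 peaks there, a density of 68.1 per Mb, and the starved list 55 of its 329, a density of 340 per Mb. On Y the distal end held 6 of 14 fed and 69 of 116 starved peaks. The genes annotated within the largest peak clusters there were Mid1, which encodes a microtubule-associated ubiquitin ligase, Erdr1 and G530011O06Rik. Without the distal end, the density on X relative to autosomes was 0.109 fed and 0.108 starved.

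**Figure D2:**
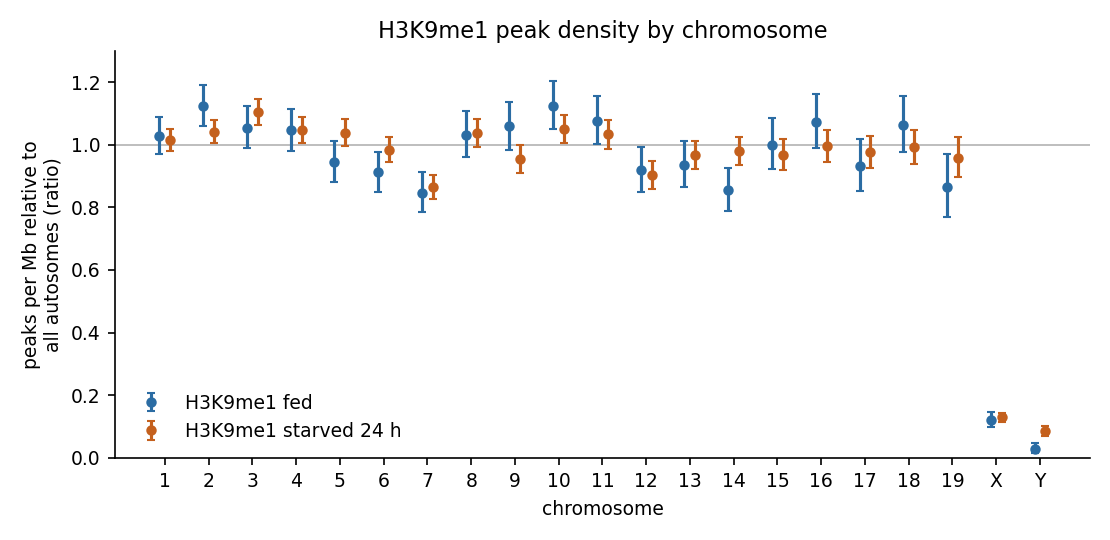
Number of H3K9me1 peaks per Mb of known sequence on each chromosome (x axis), divided by the density over all autosomes of the same list (y axis, ratio), with exact 95% Poisson intervals as error bars. The autosomes lie near 1 in both lists, whereas X is at 0.121 fed and 0.129 starved and Y at 0.0273 and 0.0845.

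On a scale of 1 Mb, the peak counts of the 2 conditions were weakly correlated. Fed counts were small, from 2 to 11 between the 5th and 95th percentile, and counting error alone lowers such a correlation. Over 2403 autosomal windows the median was 5 fed and 15 starved peaks, and the rank correlation of the 2 counts was 0.234, with windows that share the mappability and composition of the genome. On X the median was 0 fed and 1 starved over 167 windows. Some windows held far more peaks, up to 44 fed, in the window with the satellite array of chromosome 9, and 174 starved, in a window of chromosome 5 with Speer4 genes.

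Peaks no more than 10 kb apart were joined into clusters. Single peaks made up 93.6% of the 13067 fed clusters and 85.2% of the 31473 starved ones. Clusters of at least 10 peaks numbered 2 fed, with 57 peaks (0.405%), and 19 starved, with 585 peaks (1.55%). The satellite array at chr9:3000023-3038189 was the largest fed cluster. It held 42 fed peaks that covered 14839 bp at a median fold of 1.40 and 5 starved peaks that covered 37147 bp at a median fold of 2.14, and 98.3% of the bases of the fed peaks were repeat-masked. The array was thus nearly filled by a few long starved peaks and broken into many fed ones. The second fed cluster, of 15 peaks, lay in Sfi1, which encodes a centrin-binding protein of the centrosome. The starved list held 33 peaks in the same interval.

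Several of the largest starved clusters, with the largest of all, lay in gene families in tandem on chromosome 5. Some of these carry Speer4 genes, expressed in testis. The cluster at chr5:15574876-15714615, with Speer4c and Speer4d, held 93 starved and 5 fed peaks at median folds of 3.6 and 3.36. The cluster at chr5:14900814-15062316, with Speer4e, held 78 starved and 2 fed peaks at 3.49 and 3.49. A further cluster at chr5:15461164-15560394, annotated with Gm21149 and Gm21190, held 52 starved and 4 fed peaks. The folds of the few fed peaks there were therefore close to those of the many starved ones. The H3K9me2 lists held 25 fed and 58 starved peaks in the first of these clusters, LSD1 held 0 and 52, and GR held 0 and 46. A higher number starved than fed was thus seen there for all 4 targets, which have 1 input per condition between them. Other large starved clusters lay elsewhere. That at chrY:90718640-90843634, with Erdr1, held 81 starved and 6 fed peaks. That at chr11:3114599-3197859, with Sfi1, held 56 starved and 19 fed peaks. The starved cluster at chr1:88208685-88263224 covered the Ugt1a genes, which encode UDP-glucuronosyltransferases, with 24 starved and 5 fed peaks. Several others lay in a zinc finger cluster on chromosome 4, with Zfp982, Zfp985 and Zfp992 among the genes. In that region the cluster at chr4:147401097-147457958 held 19 starved and 5 fed peaks.

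Few sites were called in both conditions, and those few were of particular kinds. On chromosomes 1 to 19, X and Y, 302 of 14071 fed peaks met a starved peak (2.15%, 95% CI 1.91 to 2.40), and 256 of 37781 starved peaks met a fed one (0.678%, 95% CI 0.597 to 0.766). Sequences outside these chromosomes added 94 of 107 fed peaks (87.9%) and 41 of 242 starved peaks (16.9%). When the fed peaks were moved by a fixed distance to either side, 0.938% still overlapped a starved peak at 0.5 kb, 0.654% at 10 kb and 0.327% at 100 kb. Among fed peaks in which the search found no tandem repeat the share was 1.38% in place and 0.331% at 100 kb. Some of these peaks nevertheless lay in the satellite array of chromosome 9. With the starved list reduced to the length of the fed one by fold enrichment, the shared part of all fed peaks was 0.296%. Without the tandem repeats found in either list it was 1.31%.

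Recurrence was a matter of both ends of the fold range. Of the fed peaks with a fold under 3, 185 of 278 (66.5%, 95% CI 60.7 to 72.1) were also called in starved muscle, as were 14 of 34 (41.2%, 95% CI 24.6 to 59.3) with a fold of 8 or more. In the largest class, a fold of 3.5 to 4, only 34 of 7323 (0.464%, 95% CI 0.322 to 0.648) were. Starved peaks showed the same form, with 139 of 601 (23.1%) under a fold of 3, 45 of 17921 (0.251%) from 3.5 to 4 and 9 of 15 (60%) at 8 or more. Peaks in the middle of the range, which make up most of both lists, thus almost never recurred. By length, 47 of 9103 fed peaks under 50 bp (0.516%) recurred, against 19 of 21 (90.5%) of at least 500 bp. The fed satellite peaks that recurred, all under a fold of 3, often met the same long starved peak.

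**Figure D3:**
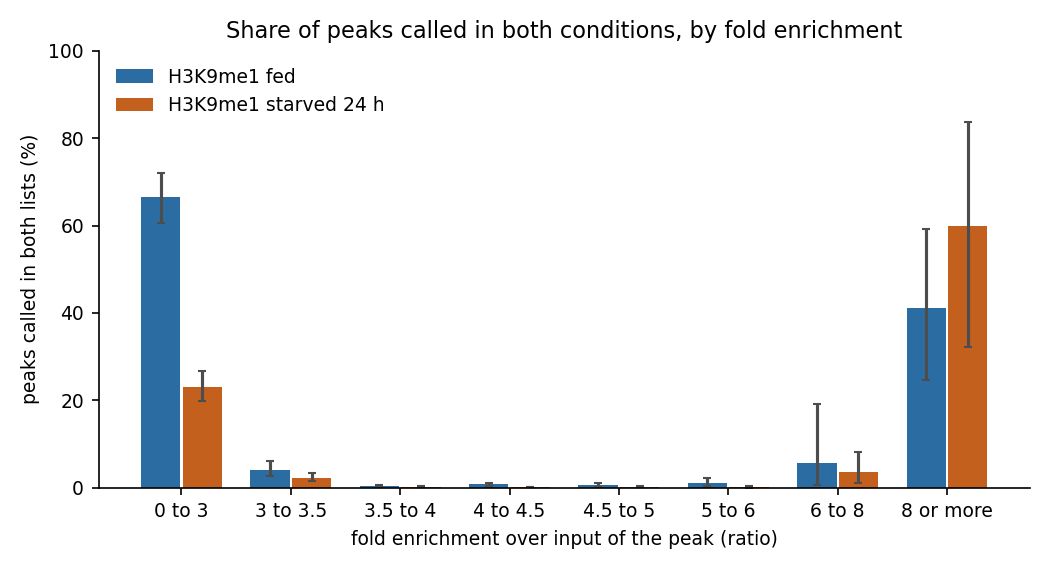
Share of H3K9me1 peaks on chromosomes 1 to 19, X and Y that were called in both conditions (y axis, percent), by the fold enrichment of the peak (x axis, ratio to input), with exact 95% binomial intervals as error bars. The share is high at both ends, 66.5% fed and 23.1% starved under a fold of 3 and 41.2% and 60% at 8 or more, and below 1% from 3.5 to 5 in both lists.

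Tandem repeats carried much of what recurred. Of the recurring fed peaks, 110 of 302 (36.4%) were classed by the search as a GGAAT repeat, a C or G run, satellite or another tandem array. Of the peaks not shared, 0.443% were. The search missed some peaks of the satellite array of chromosome 9. For starved peaks these shares were 29.3% and 0.720%. All 35 fed peaks with the period of the satellite recurred, many of them on the same long starved peak. So did 59 of 104 (56.7%) in other tandem arrays and 10 of 25 (40.0%) in GGAAT repeats, against 192 of 13900 (1.38%) with none of these found. Repeat-masked bases made up 67.4% of the recurring and 25% of the other fed peaks, and 70.7% and 29.1% of the starved ones. Recurring sites were also shared with the other targets. Of the 302, 57 lay in 5 of the 8 lists of the series, 52 in 6, 75 in 7 and 8 in all 8, and 65 (21.5%) lay in no list of another target. Of the non-recurring peaks, 92.2% fed and 93.2% starved lay in no list of another target.

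At sites called in both conditions the fold enrichments kept their order. Over the 303 overlapping pairs the rank correlation was 0.838, where the pairs of an array share their sequence. The classes moved apart in direction. The satellite pairs had a higher fold starved in 35 of 35, with medians of 1.40 fed and 2.14 starved. These pairs repeat a few starved peaks: in the array of chromosome 9, 42 fed peaks met 5 starved ones. The starved fold of the 35 pairs ran only from 2.14 to 2.28, so they do not count as 35 separate sites. Other tandem arrays were higher starved in 48 of 59 pairs, with medians of 1.87 and 2.00. Pairs in which the search found no tandem repeat were higher starved in 119 of 193, with medians of 2.82 and 2.86. That class still held fed peaks of the satellite array of chromosome 9, such as chr9:3009314-3010269 and chr9:3012767-3013721, both higher starved. The 10 GGAAT pairs and the 6 pairs at C or G runs of at least 15 bp were all lower starved, as given above.

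**Figure D4:**
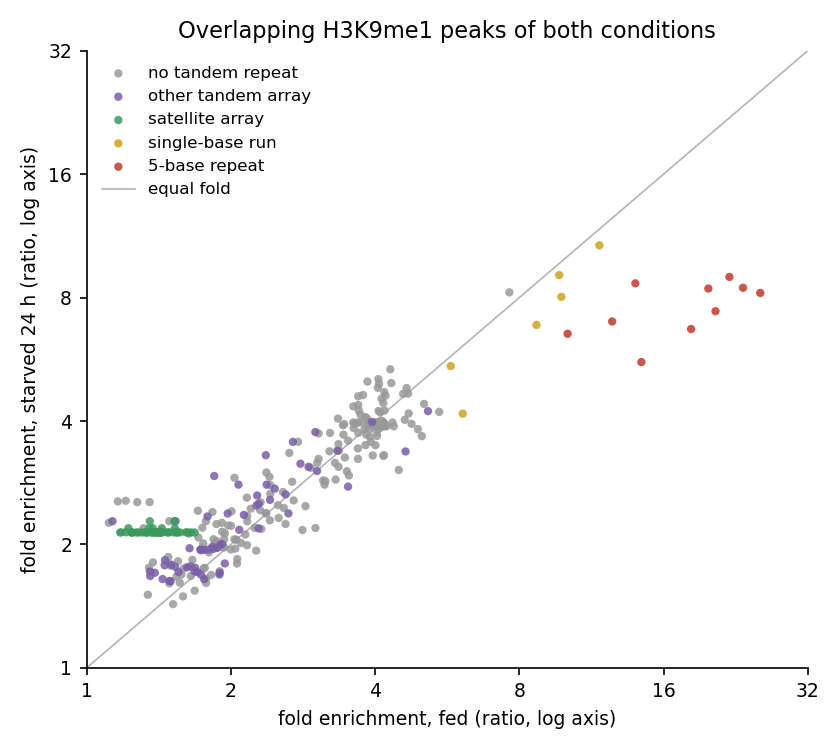
Fold enrichment over input of the 303 pairs of overlapping H3K9me1 peaks, fed (x axis) against starved for 24 h (y axis), both on log axes, each point a pair coloured by the kind of repeat and the line marking equal fold. The 10 GGAAT pairs lie below the line at a fed fold of 10.1 to 25.5. The 35 satellite pairs, many of which share a starved peak, lie above it at a starved fold near 2.14.

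Promoters with a peak in both conditions were few. A fed peak had its midpoint in the promoter of 507 of 26180 annotated genes (1.94%), a starved peak in 812 (3.1%) and both in 29 (0.111%). Of the 507 fed genes, 29 (5.72%, 95% CI 3.86 to 8.11) also had a starved promoter peak, which is 3.57% of the 812 starved genes. The peaks overlapped in 11 of the 29 and lay apart in 18. Cd82, a tetraspanin of the cell surface, had the highest lower fold of the pair, 4.12 fed and 4.13 starved, with the peaks 540 bp apart. Map2k3, an upstream kinase of p38, had 4.36 and 3.89, and Tubgcp2 of the gamma-tubulin complex 3.83 and 4.08. Gm15408 had 5.01 and 3.67 in overlapping peaks. Pomgnt1, which glycosylates dystroglycan, had 3.64 and 4.11, Cops7b of the COP9 signalosome 3.64 and 4.30, and Wbp2, a transcriptional coactivator, 3.62 and 4.51. Elmo2, which acts in cell engulfment and migration, had 3.65 and 4.08 in peaks 9692 bp apart, and Pde4b, a cAMP phosphodiesterase, 5.54 and 3.96 in peaks 166189 bp apart, at different start sites. The starved fold was the higher one at 19 of the 29.

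The highest folds among promoter peaks belonged to genes of varied function. In the fed list they were those of Rn7s2 and Rn7s1, genes of the RNA of the signal recognition particle, at 7.22 and 5.58, of Ndufa6, a subunit of complex I, at 5.98, of Cdc42se2, a small Cdc42 effector, at 5.68, and of Pde4b at 5.54. In the starved list they were those of Ppp2cb, a catalytic subunit of protein phosphatase 2A, at 8.68, Vinac1 at 6.66, Spsb3, a ubiquitin ligase adaptor, at 6.20, Vamp2, a vesicle SNARE protein, at 6.07, and Kif13b, a kinesin, at 5.99. None of these 10 peaks was overlapped by an H3K9me1 peak of the other condition, where 2.15% of all fed and 1.27% of all starved promoter peaks were. The Rn7s2 peak, at the gene's own start, was overlapped by H3K9me2 fed at a fold of 18.7 and LSD1 fed at 8.16. The strongest starved promoter peak held no CpG, and its sequence is shown with that of the fed Ndufa6 peak, in which capitals mark CpG.
Ndufa6, fed, chr15:82354496-82354544, 229 bp from the TSS: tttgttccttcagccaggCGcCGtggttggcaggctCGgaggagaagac
Ppp2cb, starved, chr8:33598906-33598959, 688 bp from the TSS: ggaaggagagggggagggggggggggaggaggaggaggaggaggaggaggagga

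Genes with an H3K9me1 promoter peak often had a promoter peak of another target. Of the 507 fed genes, 241 (47.5%, 95% CI 43.1 to 52.0) had an LSD1 fed promoter peak, against 22.4% of all genes, and 208 (41.0%) had one of H3K9me2 fed, against 22.3%. Of the 812 starved genes, 218 (26.8%, 95% CI 23.8 to 30) had an LSD1 starved promoter peak, against 16.2% of all genes, and 11 (1.35%) one of H3K9me2 starved, against 0.206%. GR starved promoter peaks were found at 338 (41.6%) of them, against 23.3%. Direct overlap was rarer. Of all fed peaks, 451 (3.18%) were overlapped by LSD1 fed and 725 (5.11%) by H3K9me2 fed. Of all starved peaks, 1032 (2.71%) were overlapped by LSD1 starved and 466 (1.23%) by H3K9me2 starved. At a fold of at least 5 the fed shares were 7.43% and 10.6% and the starved ones 2.34% and 0.842%. With the starved list cut to the length of the fed one, the starved shares were 1.3% and 0.310%. Peaks called in both conditions were overlapped far more often, 173 of 396 fed ones (43.7%) by LSD1 fed and 188 of 297 starved ones (63.3%) by LSD1 starved. Of these fed ones, 94 lay off the autosomes, X and Y, and 110 in tandem repeats found by the search. For the starved ones these counts were 41 and 75. Of all fed peaks in such repeats, 45.0% were overlapped by LSD1 fed, against 2.27% with no repeat found. The starved shares in LSD1 starved were 37.1% and 2.08%. Recurring peaks with no repeat found were not tested apart. The LSD1 starved list used for these values has 66332 peaks, 10.2% of them at a q-value of 0.01 or less. The LSD1 fed list has 16616 and 45.5%. At that q-value 7553 LSD1 fed and 6790 LSD1 starved peaks remained. The study, which names a false discovery rate of 0.01, reported markedly fewer LSD1 peaks after starvation. The whole lists used here have the opposite order, whereas at a q-value of 0.01 or less the starved list is the shorter one.

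H3K9me1 peaks were denser close to fed LSD1 sites than in the genome at large, in both conditions. Within 250 bp of the centres of 16577 LSD1 fed peaks, fed H3K9me1 midpoints occurred at 48.0 per 1000 LSD1 peaks and kb, against 5.31 in the genome, a ratio of 9.03. Starved midpoints occurred at 60.9, against 14.3, a ratio of 4.27. From 2 to 5 kb the ratios were 2.01 fed and 1.65 starved. A fed H3K9me1 midpoint lay within 1 kb of 4.57% (95% CI 4.26 to 4.90) of these LSD1 peaks, and a starved one within 1 kb of 7.22% (95% CI 6.83 to 7.63), where the genome gives 1.05% and 2.80%. At these sites the share with an H3K9me1 midpoint nearby was thus higher in the longer starved list, and the excess over that list's own density was lower. The study reported less H3K9me1 at loci bound by LSD1 after starvation, from the density of reads. A count of called peaks is a different kind of measure, and the density of reads was not tested here. Around LSD1 starved peaks the ratios within 250 bp were closer to each other, 3.27 for fed and 2.72 for starved H3K9me1.

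At the 12 loci that the study displayed or tested for H3K9 methylation, fed and starved peaks lay at different positions, as they did in the lists as a whole. These loci were chosen by the study on these samples, and 11 of them could be matched to the annotation. A midpoint within 30 kb of a TSS was found at 9 loci fed, with 11 peaks, and at 10 loci starved, with 20 peaks. Among all genes, 33.1% had such a midpoint fed, 61.3% starved and 22.1% in both lists. In no case did a fed and a starved peak overlap, where 2.79% of all fed and 0.781% of all starved peaks did. The fed list had promoter peaks at 5 of the 11, and the starved list at 0 of 11 (95% CI 0 to 28.5%), against 1.94% and 3.1% of all genes. The starved count is near that share. The fed ones were at Daxx, a chaperone of histone H3.3, with a fold of 4.11, Calm2, which encodes calmodulin, at 3.57, Macrod1, an ADP-ribosylhydrolase, at 3.6, Avpi1 at 3.8 and Rap2b, a small GTPase, at 3.92. The peaks at Daxx and Rap2b had a q-value under 0.01, at 0.00163 and 0.00918, whereas those at Avpi1, Calm2 and Macrod1 did not, at 0.0107, 0.0625 and 0.0625. Of the 5, all but Macrod1 are free of exon sequence, and 2 are shown with CpG in capitals.
Daxx, fed, chr17:33909304-33909376: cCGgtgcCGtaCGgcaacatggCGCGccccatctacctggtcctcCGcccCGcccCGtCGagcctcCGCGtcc
Avpi1, fed, chr19:42129262-42129310: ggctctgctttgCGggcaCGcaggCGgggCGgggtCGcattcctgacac

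Outside promoters, the positions differed from locus to locus. Ddit4, an inhibitor of mTORC1, had 1 fed peak at 15.5 kb with a fold of 3.70 and 1 starved peak at 4.31 kb with a fold of 4.40. Trim63, the atrophy ubiquitin ligase MuRF1, had 0 fed and 4 starved peaks with folds of 3.81 to 4.22, and Pax7, a transcription factor of satellite cells, had 0 fed and 2 starved. Daxx had no starved peak within 30 kb. Pik3r1, the regulatory subunit of phosphoinositide 3-kinase, had 2 fed and 4 starved peaks, and Tfcp2, a transcription factor, had 1 of each, with the fed one 150 bp inside the gene at a fold of 4.18 and the starved one at 9.43 kb at 4.37. Mtch1, a mitochondrial outer membrane insertase, had 2 fed peaks and 1 starved peak. H3K9me2 had 104 fed peaks at 11 of these loci and 0 starved peaks, in lists of 171402 fed and 6624 starved peaks.

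Gene lists of muscle and of H3K9 methylation mostly followed the share of all genes in each condition. Of 19 genes of proteolysis in atrophy, 12 had a fed and 11 a starved peak within 30 kb. Usp19, a deubiquitinase, had the only promoter peak of the list, fed at a fold of 4.17. Of 20 autophagy genes, 9 had a fed and 15 a starved peak. Bnip3, a mitophagy receptor, had the highest fold, 5.97 starved, and Ulk1, the kinase that starts autophagy, had 4.19 fed and up to 4.91 starved. Of 21 genes of the glucocorticoid response and of mTORC1 inhibition, 11 had a fed and 16 a starved peak, with a starved promoter peak of 3.64 at Klf15, a transcription factor of amino acid catabolism. Among the 8 lists of muscle and H3K9 genes, the exact interval included the share of all genes in both conditions, except for the atrophy and the sarcomere list near fed peaks, whose lower bounds were 38.4% and 34.3%.

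Of 30 sarcomere genes, 16 had a fed and 23 a starved peak. The promoter of Mybpc2, which encodes fast myosin-binding protein C, held a fed peak of 4.18, and that of Myl1, a myosin light chain, a starved peak of 4.30. Of 20 genes of excitation-contraction coupling and the sarcolemma, 4 had a fed and 11 a starved peak, with promoter peaks at Scn4a, the muscle sodium channel, of 3.98 fed and at Utrn, which encodes utrophin, of 3.91 starved. Of 16 myogenic and satellite cell regulators, 7 had a fed and 13 a starved peak, with promoter peaks at Mef2a of 3.5 fed and at Mymx, a fusion peptide of myoblasts, of 3.93 starved. No promoter in the muscle lists held both a fed and a starved peak, which 0.111% of all genes did.

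Of 11 H3K9 methyltransferase genes and partners, 3 had a fed and 6 a starved peak and none a promoter peak. Setdb1 had a fed intronic peak of 4.72, and Mecom, a PRDM family methyltransferase, had starved peaks of up to 4.33. Of 21 genes of H3K9 demethylases and the LSD1 complex, 6 had a fed and 16 a starved peak. Promoter peaks were starved at Kdm3a, a JmjC demethylase of H3K9, at 3.46, and at Hmg20b, a subunit of the LSD1 complex, at 3.72. The share of this list near a fed peak was 28.6% (95% CI 11.3 to 52.2) and near a starved one 76.2% (95% CI 52.8 to 91.8).

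Larger families gave narrower intervals. Genes of a family that lie close together can share 1 peak, and the intervals, which treat genes as separate, take no account of this. Olfactory receptor genes, which are silent in muscle and serve as a reference, had a fed peak within 30 kb in 270 of 1125 (24.0%, 95% CI 21.5 to 26.6) and a starved one in 658 (58.5%, 95% CI 55.5 to 61.4). Vomeronasal receptor genes had 55 of 350 (15.7%, 95% CI 12.1 to 20.0) and 157 (44.9%, 95% CI 39.6 to 50.2), below the share of all genes in both conditions. Promoter peaks of ribosomal and respiratory genes were few in number, although their fed shares lay above that of all genes. Of 85 cytosolic ribosomal protein genes, 7 (8.24%, 95% CI 3.38 to 16.2) had a fed and 1 (1.18%, 95% CI 0.0298 to 6.38) a starved promoter peak, among them Rpl30 at 5.12, Rpl11 at 4.70 and Rps19 at 4.57, all fed. The fed Rn7s1 peak of 5.58, of which 93.5% was repeat-masked, also lay in the promoter of the ribosomal protein gene Rps29. Of 96 respiratory chain genes, 7 (7.29%, 95% CI 2.98 to 14.4) had a fed and 2 (2.08%, 95% CI 0.253 to 7.32) a starved one, the latter including Atp5j2 at 4.94. The fed and starved intervals overlapped in both families. Zinc finger genes ran the other way, with 7 of 394 (1.78%, 95% CI 0.717 to 3.63) fed and 26 (6.60%, 95% CI 4.36 to 9.52) starved, 4 of them in both. Zfp865 had a starved promoter peak of 5.23 and Zfp446 a fed one of 4.11. The starved share of zinc finger genes lay above the 3.1% of all genes, and the fed shares of ribosomal and respiratory genes above 1.94%. No test between the conditions could be made for these lists.

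**Figure D5:**
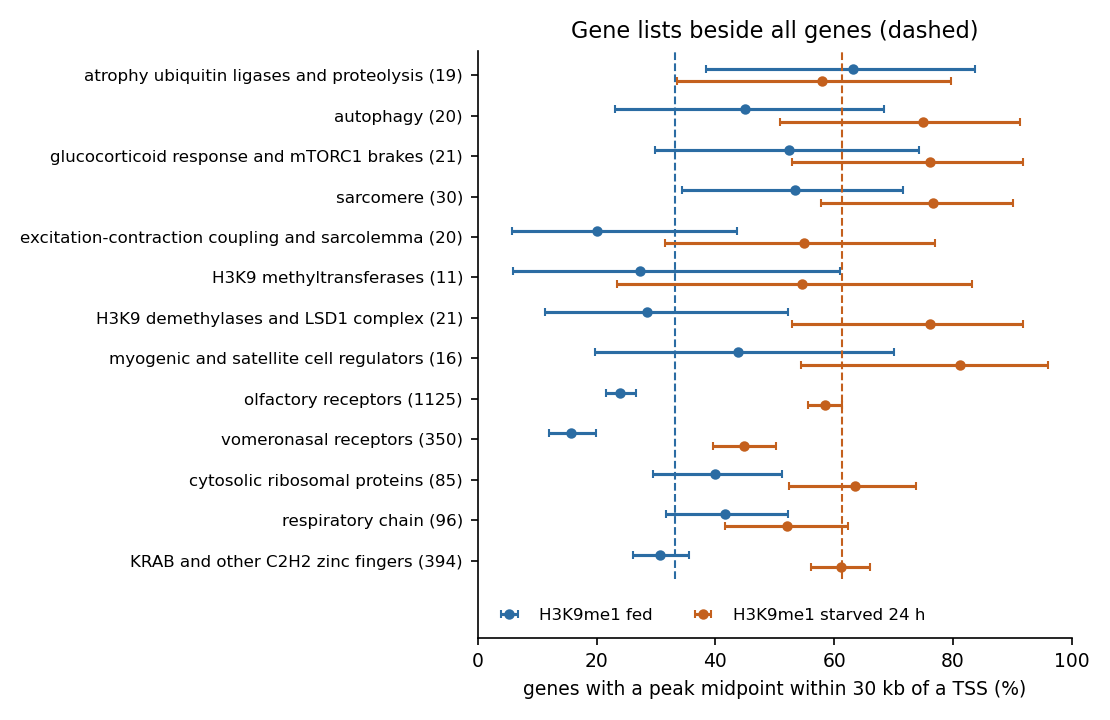
Share of the genes of each list with an H3K9me1 peak midpoint within 30 kb of a TSS (x axis, percent) in fed and starved muscle, with the number of genes in brackets and exact 95% binomial intervals as error bars. Dashed lines mark all genes, 33.1% fed and 61.3% starved, and the vomeronasal receptors lie below both, at 15.7% and 44.9%. The intervals treat genes as separate, although genes that lie close together can share a peak.

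Genes next to a peak were shared more often than the peaks. Of 7944 genes nearest to a fed peak, 5899 (74.3%, 95% CI 73.3 to 75.2) were also nearest to a starved one, which is 44.4% of the 13273 starved genes. Among all 26180 genes, 50.7% were nearest to a starved and 30.3% to a fed peak. The 74.3% depended on how many peaks entered, since it was 25.4% at a fold of at least 5 and 35.6% when a midpoint had to lie within 10 kb of the start site. Sfi1, which holds the second fed cluster and spans 68.8 kb, had the most peaks in both lists, and the others that led were long genes. In the fed list Sfi1 had 20, followed by the neural adhesion and synapse genes Ptprd with 15, Dlg2 with 13 and Nrxn3 with 12, together with Gpc5, a glypican, also with 12. In the starved list Sfi1 had 49, followed by Fhit with 38, Macrod2 with 35, Robo2 with 34 and Cntnap2 with 33. Fhit, a long fragile-site gene, held 3 fed peaks and Macrod2 6. The 2432 genes of at least 100 kb had a median of 0.530 fed and 1.46 starved peaks per 100 kb, near the genome's 0.531 and 1.43. The densest of them were Tmem267 with 7.35 per 100 kb in both lists and, starved, Zfp978 with 10.1. Among sarcomere genes Myom1, which encodes the M-band protein myomesin, was among the 5 densest fed, with 4 fed and 6 starved peaks. Vegfc, a lymphatic growth factor, held 7 starved peaks and 0 fed ones.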

How the data were processed

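ChIP-seq peak lists of H3K9me1 in fed and 24 h starved mouse skeletal muscle were used, 1 library each, with the 6 other lists of the series for comparison. Per the methods of the study, single-end 50 bp reads were mapped to mm10 with Bowtie, although names in the deposited lists carry Bowtie2. Uniquely mapped reads were kept, reads in a blacklist that is named for the human genome were removed, and broad peaks were called per library by MACS2 against input with a fragment extension of 150 bp. Base calling used bcl2fastq 2.20.0.422 per the submitters' processing notes. Each deposited list gives the fold enrichment of each peak relative to input, a ratio, and its −log10 q-value. The methods give a false discovery rate of 0.01, whereas the q-value reached 0.0992 fed and 0.0925 starved in the deposited lists, which were used whole. Depth is unknown.

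Peaks counted as shared on an overlap of at least 1 bp. Midpoints were placed with RefSeq transcripts of 26180 genes on GRCm38, which also gave the sequences. Tandem repeats were searched in the genome sequence, as GGAAT in at least 4 copies, C or G runs of at least 15 bp, or an array with a period of at most 400 bp that matched itself at 60% of positions or more over 1000 bp, and an array with a period of 233 to 235 bp was called satellite. Some peaks inside the satellite array of chromosome 9 did not meet this rule and stayed in the class without a tandem repeat. Shares carry exact 95% intervals. No test between conditions was made with 1 library each. Python 3.11.15, NumPy 2.4.6, pandas 2.3.3 and SciPy 1.17.1 were used, and the overlap functions were tested on simulated data.

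The members and gene lists were chosen with earlier results of these data known. Named are the study's loci, the 10 strongest shared sites (a selection is printed), the 10 strongest promoters with peaks of both lists (1 of which is not reported here) and the 5 strongest of each, the 5 genes with the most and the 5 with the densest peaks in each list, and for each gene list members with a promoter peak or else the highest fold. Among the alternatives, leaving out tandem repeats, sequences outside chromosomes 1 to 19, X and Y, or the distal end of X was chosen after seeing the data.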

Additional observations from a re-analysis of the deposited data

How the results depend on the processing

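The ratio of peak numbers, 2.68, ranged from 2.66 to 3.79 over its alternatives and the density of fed peaks on X kept within its counting interval. Other values moved beyond their intervals. The share of fed peaks overlapped by a starved peak, 2.79%, was 4.49% at a q-value of 0.01 or less and 0.296% with the starved list cut to the length of the fed list. It was 2.53% when 50% of the shorter peak had to be covered and 3.65% with midpoints within 500 bp. It was 2.15% without sequences other than chromosomes 1 to 19, X and Y, and 1.31% without the tandem repeats found. The reverse share, 0.781%, was 0.961%, 0.296%, 0.684%, 1.40%, 0.678% and 0.481% under the same 6 changes. The promoter share of fed peaks, 3.28%, was 2.84% at that q-value, 2.48% at a fold of at least 5 and 5.09% with promoters extended to 1 kb downstream. That of starved peaks, 2.07%, was 1.72% with the shortened list, 3.71% with the extended promoters and 2.26% with any base in a promoter. The density of starved peaks on X, 0.129, was 0.146 at that q-value, 0.202 at a fold of 5, 0.115 with peaks within 1 kb merged and 0.108 without the distal end. The share of fed genes also nearest to a starved peak, 74.3%, was 61.0%, 25.4%, 50.7% and 35.6% at that q-value, at a fold of 5, with the shortened list and within 10 kb of the TSS. Repeat-masked bases, 27.2% fed, were 30.8% and 33.7% at that q-value and fold, and 30.1% starved became 32.3%, 30.6% and, with the shortened list, 28.4%. Overlap of fed peaks with LSD1, 3.18%, was 3.87%, 7.43%, 2.83% and 2.27% at that q-value, that fold, 50% overlap and outside the tandem repeats found. With H3K9me2, 5.11%, it was 5.75%, 10.6%, 4.25% and 3.68%. For starved peaks, the same changes, with the shortened list inserted after the fold, gave 1.90%, 2.34%, 1.3%, 2.15% and 2.08% in place of 2.71% for LSD1, and 1.36%, 0.842%, 0.310%, 1.06% and 0.807% in place of 1.23% for H3K9me2. The cause was not tested, beyond the fewer peaks that a stricter filter leaves.

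No paired analysis was possible because each condition has 1 library. Depth per library is unknown, so a longer list cannot be told from a deeper library, and condition cannot be told from library code. In both lists many peaks have the shortest length that occurs, which lowers the chance of overlap.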

Other observations

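The longest fed peak on chromosomes 1 to 19, X and Y outside satellite and other tandem arrays, chosen after its values were seen, lay at chr3:34647302-34648770 in an intron of Sox2ot, 1.96 kb from the TSS of Sox2, a transcription factor of stem cells. It was 1469 bp long with a fold of 8.70 and a q-value of 2.55e-21. H3K9me2 fed had a peak there with a fold of 5.57, LSD1 fed of 4.84 and GR fed of 3.5. No starved list had a peak that overlapped it.

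Mitochondrial DNA, which carries no histones, held 0 fed and 6 starved H3K9me1 peaks.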
